A study of Homo sapiens with 9 samples.

Results

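Solute carriers are the membrane proteins that move nutrients, ions, metals and metabolites into, out of and within cells, and their RNA was followed here in PANC-1 cells given a miR-520f mimic. A member was a gene whose symbol has the solute carrier form SLC, family number, A and member number, on a probe set annotated with that 1 symbol, leaving out the nucleoside carriers SLC29A1 and SLC29A2. Members were then chosen by their mean level over all 9 arrays, which had to be at least 6.0 on the log2 scale of the array. Of 275 such genes 67 were selected on that level, and 208 lay below it. The 67 were among 14232 genes measured, of which 4664 (32.8%) reached 6.0. Nearest inside the limit were SLC1A4 (6.07) and SLC60A2 (6.23), and nearest outside were SLC17A5 (5.95) and SLC20A2 (5.95). In 62 members the mean was at least 6.0 in every group, whereas SLC1A4, SLC12A7, SLC25A46, SLC35A3 and SLC75A1 reached it in 2 groups and lay below it in miR-520f cells. Because the limit was set on the overall mean, a level that passed was not a finding. That mean holds the arrays that were compared, so the limit was not neutral. A gene that fell could pass through its control levels, and a gene that rose could be kept out by them. The limit was set with earlier results of these data known.

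PANC-1 is an epithelial line from a human carcinoma of the pancreas. All cells were kept in RPMI-1640 with serum and glutamine and received the lipid transfection reagent. Non-transfected cells received that reagent only, negative control cells a control mimic at 20 nM, and miR-520f cells the miR-520f mimic at 20 nM, and RNA was taken at 72 h. Each group had 3 arrays, labelled as biological replicates without a statement of how cultures were kept apart, so the p-values cover no more than array-to-array spread within this set. One line was used, and the amount of mimic taken up is not analysed here. In bulk RNA, fewer cells with a transcript and less of it per cell cannot be told apart.

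Carriers work as uniporters, as cotransporters driven by sodium or protons, or as exchangers of one solute for another. Some sit in the plasma membrane, others in lysosomes, the Golgi apparatus or the inner membrane of mitochondria, where the SLC25 family forms the largest group. Pancreatic carcinoma cells are known for a high demand for glucose, glutamine and cystine, for which SLC2A1, SLC1A5 and SLC7A11 are the best known entry routes.

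A microRNA mimic guides the silencing complex to RNAs that pair with the seed, bases 2 to 8 of its active strand. The labels did not say which arm of miR-520f the mimic represented, so the mature sequences of both arms are shown, with the seed in capitals (RefSeq, GRCh38.p14, 22 nucleotides each, chr19:53682173-53682194 and chr19:53682213-53682234, plus strand).
hsa-miR-520f-5p: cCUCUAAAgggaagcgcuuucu
hsa-miR-520f-3p: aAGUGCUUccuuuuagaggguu
Neither seed was shared with another mature microRNA of the same table (0 others each). The 3p arm carries, from base 1 to base 7, the letters that form the seed of 12 microRNAs of the miR-302, miR-372, miR-373 and miR-520 families, so its own seed is that sequence moved by 1 base. Target sites in the carriers' transcripts were not analysed here.

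Array medians ran from 4.22 to 4.34. Deviations of single arrays from their group mean, as a root mean square over genes, ran from 0.0698 to 0.169, with the first negative control array the farthest. The markers of an epithelial line were high (KRT8 11.5, KRT18 8.92, KRT19 8.63, EPCAM 8.29, SOX9 8.24), as was VIM, while KRT7 was at 3.47. Of 12 measured markers of immune, endothelial, acinar, endocrine and fibroblast cells, 10 lay between 2.98 and 3.67, and the others were CD68 at 8.08 and COL1A1 at 7.84. CD68 had means of 8.65 in non-transfected, 8.24 in negative control and 7.35 in miR-520f cells. COL1A1 had means of 8.17 in non-transfected, 7.58 in negative control and 7.78 in miR-520f cells, and EPCAM had means of 7.80 in non-transfected, 7.69 in negative control and 9.37 in miR-520f cells. KRT19 went the other way, with means of 8.90 in non-transfected, 8.83 in negative control and 8.16 in miR-520f cells. The part of these shifts in the results was not tested.

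The carriers moved in both directions under miR-520f. The potassium-chloride exporter SLC12A7, the magnesium exporter SLC41A1 and the taurine importer SLC6A6 fell by over 1 log2 unit against each control, while the aspartate/glutamate exchanger SLC25A13, the copper importer SLC31A1 and the myo-inositol importer SLC5A3 were among those that rose. Against both controls with one sign, 7 members (10.4%) were higher and 16 (23.9%) were lower, 0 moved in opposite directions, and 26 passed in neither comparison (limma, Benjamini-Hochberg adjusted p under 0.05 over 14232 genes). Over all genes 9.37% were higher and 8.61% lower against both controls, and over the 4664 genes at 6.0 or more these shares were 17.3% and 14.2%. Of those 4664 genes 35 moved in opposite directions and 1716 passed in neither comparison. Without miR-520f replicate 1, 4 members in place of 7 were higher against both controls, and 3 were in an unmoderated model. The limit on the mean bears on this balance, since SLC12A7, SLC25A46, SLC35A3 and SLC75A1 fell to below 6.0 and passed it through their control levels. Of the 62 carriers at 6.0 in every group 7 were higher and 12 lower, and of the 74 at 6.0 in at least 1 group 10 were higher and 16 lower. The latter add SLC11A2, SLC12A2 and SLC25A16, which rose to above 6.0 from below. Shares of all genes under either of these limits were not worked out, so the counts have no background beside them. With arrays centred on their median 9 members were higher and 14 lower.

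Against non-transfected cells 14 members were higher and 20 lower. The shares over all genes were 14.5% and 13.1%, and over genes at 6.0 or more 27.8% and 19.6%, beside 20.9% and 29.9% of members. The excess of lower calls in this comparison was not kept under every setting, with 16 higher and 16 lower after centring arrays on their median, 15 and 15 without non-transfected replicate 1, and 14 and 15 among the carriers at 6.0 in every group. Over all genes the counts were 2372 and 1475 after centring and 1937 and 1598 without that replicate. None was worked out for a level of 6.0 in every group. Against the negative control 11 members were higher and 19 lower, that is 16.4% and 28.4%, with 15.4% and 12.6% of all genes and 27.1% and 21.0% of genes at 6.0 or more. The median log2 fold change of the members was -0.06 in the comparison with non-transfected cells and -0.09 in that with the negative control. Over all genes the medians were -0.03 and -0.03, and over genes at 6.0 or more 0.08 and 0.08. Among members, the miR-520f arrays lay above all 6 control arrays in 12 (17.9%) and below them in 16 (23.9%). The shares were 13.2% and 12.1% of all genes and 24.1% and 17.1% of genes at 6.0 or more. The 2 comparisons share the miR-520f arrays. A gene that passed in 1 of them is not thereby shown to differ between them, since that difference is the one between the controls, which was tested on its own. The difference in share between carriers and other genes was described, not tested.

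**Figure D1:**
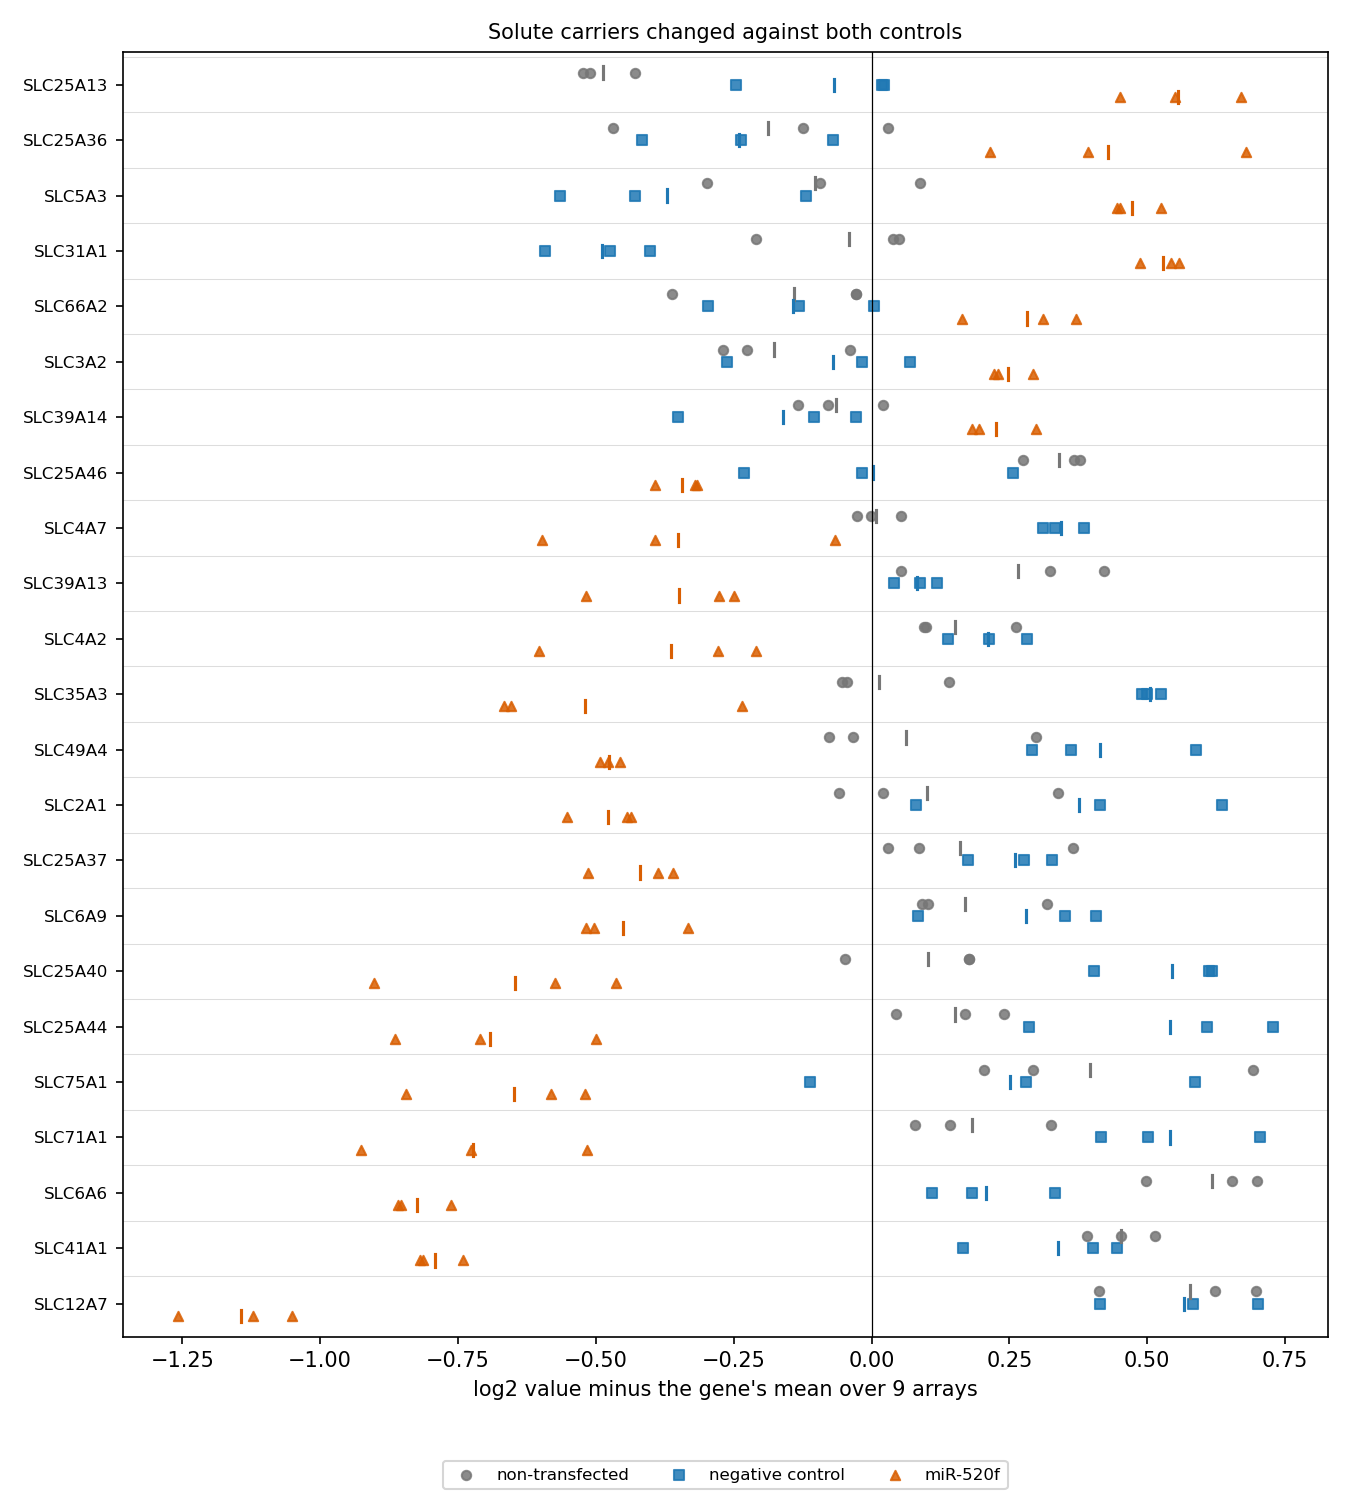
The 23 solute carriers called against both controls are plotted as each array's log2 value minus that gene's mean over 9 arrays, with 3 arrays a group and a short bar at the group mean. In the upper 7 genes the miR-520f triangles lie right of all control arrays, and in the lower 16 they lie left of them, with SLC12A7 the farthest.

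The carriers of inorganic ions and of pH numbered 5, of which 3 (60.0%) fell against both controls and 0 (0%) rose. Over the genes at 6.0 or more, 14.2% were lower and 17.3% higher against both controls. Of the 3 falls SLC12A7 passed the limit through its control levels. The limit left out SLC12A2 of the same class, which rose against both controls. SLC12A7, which carries potassium and chloride out of cells together, read 7.50, 7.57 and 7.29 in non-transfected cells, 7.58, 7.46 and 7.29 with the negative control and 5.76, 5.83 and 5.62 with miR-520f. All miR-520f arrays lay more than 1 log2 unit below the lowest control array, and the controls overlapped. The fold changes were the largest falls of any member: -1.72 (SE 0.10, adjusted p = 6.78e-07) against non-transfected cells and -1.71 (SE 0.10, adjusted p = 6.74e-07) against the negative control. SLC4A2, an exchanger of chloride for bicarbonate, read 7.37, 7.20 and 7.20 in non-transfected cells, 7.25, 7.32 and 7.39 with the negative control and 6.90, 6.50 and 6.83 with miR-520f. With -0.52 (SE 0.10, adjusted p = 0.00316) against non-transfected cells and -0.57 (SE 0.10, adjusted p = 0.00151) against the negative control, it fell in all 3 arrays below every control. SLC4A7, which imports sodium with bicarbonate, read 8.31, 8.33 and 8.39 in non-transfected cells, 8.72, 8.67 and 8.64 with the negative control and 7.94, 7.74 and 8.27 with miR-520f, and its miR-520f arrays lay below those of both controls, one of them by little. The changes were -0.36 (SE 0.11, adjusted p = 0.0351) against non-transfected cells and -0.70 (SE 0.11, adjusted p = 0.000767) against the negative control. The call against non-transfected cells was lost without non-transfected replicate 1, 2 or 3 or miR-520f replicate 1 or 2, with arrays centred on their median, with all probe sets tested or in an unmoderated model (-0.38 to -0.24, adjusted p = 0.0627 to 0.133).

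SLC4A11, a transporter of the same family with water and proton-linked activity, read 10.24, 10.23 and 10.13 in non-transfected cells, 9.78, 10.01 and 9.83 with the negative control and 10.38, 10.52 and 10.31 with miR-520f. The negative control arrays were the lowest, and miR-520f passed as higher against them, by 0.53 (SE 0.09, adjusted p = 0.000714). Against non-transfected cells the difference was 0.20 (SE 0.09, adjusted p = 0.113). The negative control against non-transfected cells gave -0.33 (SE 0.09, adjusted p = 0.025), a call lost without non-transfected replicate 1 or 2 or negative control replicate 1 or 3 or in an unmoderated model (-0.33 to -0.28, adjusted p = 0.0638 to 0.0931). SLC20A1, a sodium-driven phosphate importer, passed in neither comparison, at 0.25 and 0.03 against the 2 controls in turn, non-transfected cells first.

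Metal carriers numbered 12, and 2 rose and 2 fell against both controls, in opposite directions within one class. That was 16.7% each way, beside 17.3% higher and 14.2% lower of genes at 6.0 or more. SLC31A1, the main copper importer of the plasma membrane, read 7.42, 7.43 and 7.18 in non-transfected cells, 6.91, 6.98 and 6.79 with the negative control and 7.87, 7.94 and 7.93 with miR-520f. The 3 groups did not overlap, with the negative control lowest and miR-520f highest, so the rise was larger against the negative control. It amounted to 0.57 (SE 0.09, adjusted p = 0.000522) against non-transfected cells and 1.02 (SE 0.09, adjusted p = 8.43e-06) against the negative control. SLC41A1, which exports magnesium, read 7.61, 7.49 and 7.55 in non-transfected cells, 7.54, 7.50 and 7.26 with the negative control and 6.28, 6.35 and 6.28 with miR-520f. Both controls were close to each other and far above miR-520f. Its changes were -1.24 (SE 0.08, adjusted p = 1.68e-06) against non-transfected cells and -1.13 (SE 0.08, adjusted p = 3.24e-06) against the negative control.

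SLC39A14, also called ZIP14, imports zinc, iron and manganese, and read 8.55, 8.65 and 8.49 in non-transfected cells, 8.60, 8.52 and 8.27 with the negative control and 8.92, 8.82 and 8.81 with miR-520f. All 3 miR-520f arrays were above the 6 controls, by a small margin. The differences were 0.29 (SE 0.09, adjusted p = 0.0356) against non-transfected cells and 0.39 (SE 0.09, adjusted p = 0.00785) against the negative control. Its call against non-transfected cells was lost without non-transfected replicate 1 or 3 or miR-520f replicate 1, 2 or 3, after a further quantile normalization, with all probe sets tested, with a trended spread or in an unmoderated model (0.24 to 0.31, adjusted p = 0.0532 to 0.138). SLC39A13, a ZIP protein of the Golgi apparatus and vesicles, went the other way and read 7.27, 7.17 and 6.90 in non-transfected cells, 6.93, 6.96 and 6.89 with the negative control and 6.57, 6.60 and 6.33 with miR-520f. It fell, with log2 fold changes of -0.61 (SE 0.10, adjusted p = 0.00109) against non-transfected cells and -0.43 (SE 0.10, adjusted p = 0.00926) against the negative control.

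The remaining 8 metal carriers passed in at most 1 of the miR-520f comparisons. SLC39A9, a ZIP protein of secretory membranes, read 8.69, 8.75 and 8.60 in non-transfected cells, 8.11, 8.26 and 8.21 with the negative control and 8.91, 8.84 and 8.70 with miR-520f, so miR-520f and non-transfected cells overlapped and the negative control stood below both. Against the negative control it rose by 0.62 (SE 0.08, adjusted p = 0.000152), and against non-transfected cells the difference was 0.14 (SE 0.08, adjusted p = 0.274). The zinc carrier SLC30A7, which loads the secretory pathway, read 6.77, 6.58 and 6.38 in non-transfected cells, 7.24, 7.28 and 7.16 with the negative control and 6.90, 6.61 and 7.01 with miR-520f, with the negative control highest. It fell against the negative control, at a log2 fold change of -0.39 (SE 0.12, adjusted p = 0.0306), a call lost without negative control replicate 1 or 2 or miR-520f replicate 1 or 2, with arrays centred on their median, with all probe sets tested or in an unmoderated model (-0.42 to -0.27, adjusted p = 0.057 to 0.123). SLC39A1, a zinc importer of the plasma membrane, passed as lower against the negative control and not against the other control, at a log2 fold change of -0.37 (SE 0.08, adjusted p = 0.00582). SLC48A1, a heme carrier of endosomes and lysosomes, also passed as lower against the negative control and not against the other control, at a log2 fold change of -0.36 (SE 0.10, adjusted p = 0.0226), a call lost without negative control replicate 2 or miR-520f replicate 1 or 2, with arrays centred on their median or in an unmoderated model (-0.36 to -0.27, adjusted p = 0.0654 to 0.0925). SLC30A6, a partner of SLC30A5 in the zinc supply of the secretory pathway, passed as higher against non-transfected cells and not against the other control, at a log2 fold change of 0.33 (SE 0.09, adjusted p = 0.0165), a call lost without non-transfected replicate 2 or 3 or miR-520f replicate 1 or 3 (0.24 to 0.33, adjusted p = 0.052 to 0.0649). SLC30A5, SLC30A9 and SLC39A6 passed in neither comparison. Against non-transfected cells and then the negative control, SLC30A5 differed by 0.27 and -0.03, SLC30A9 by -0.07 and -0.29 and SLC39A6 by 0.004 and -0.17.

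**Figure D2:**
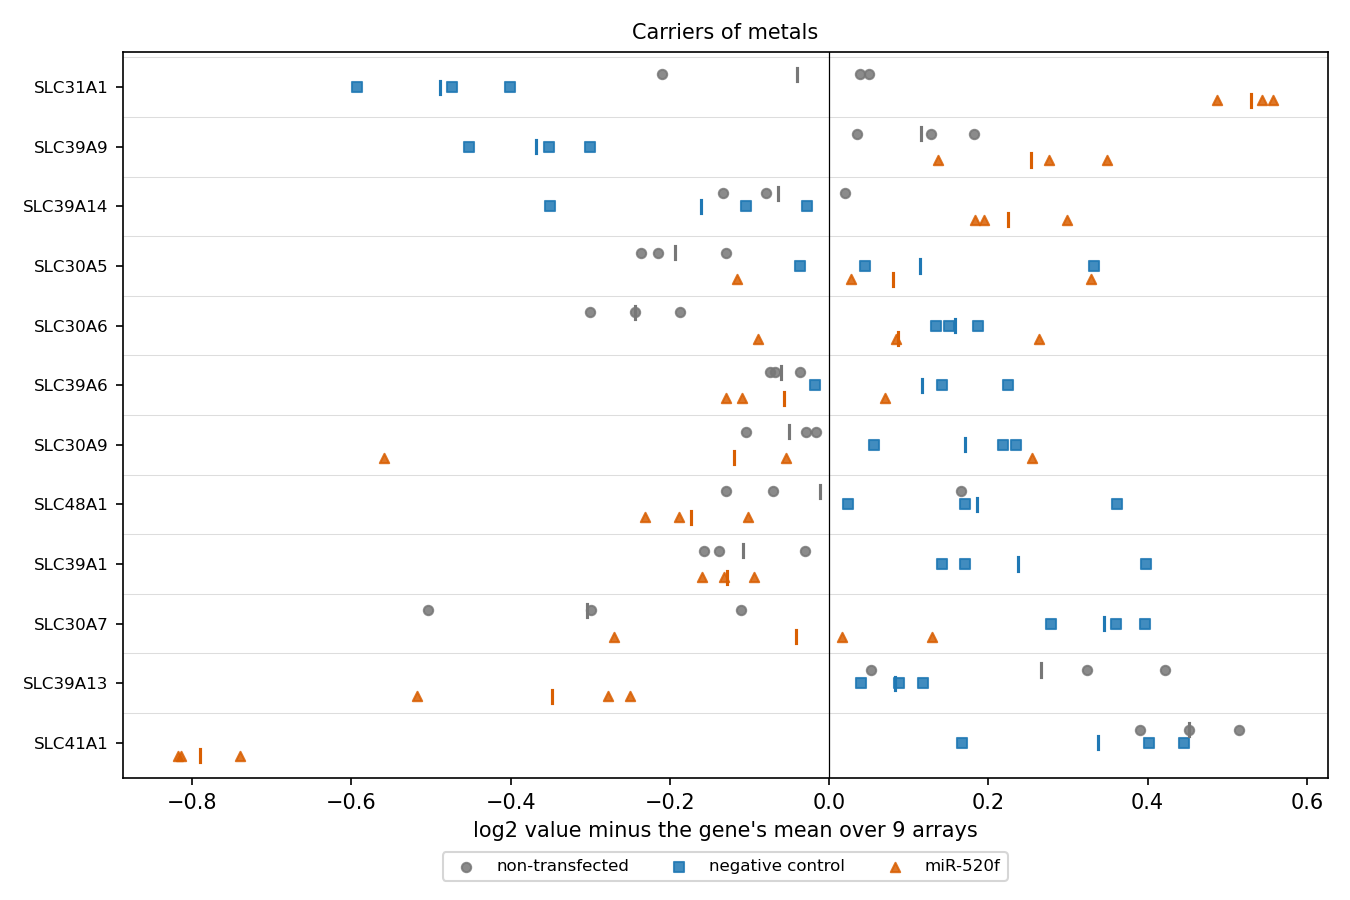
Log2 value minus the gene's mean over 9 arrays is plotted for the 12 metal carriers, with 3 arrays a group and a short bar at each group mean. SLC31A1 and SLC39A14 have all miR-520f arrays to the right and SLC39A13 and SLC41A1 all to the left, while in SLC39A9 and SLC30A7 the negative control arrays stand apart.

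Mitochondrial carriers of the SLC25 family were the largest class, with 15 members, of which 2 (13.3%) rose and 4 (26.7%) fell against both controls. Over the genes at 6.0 or more these shares were 17.3% and 14.2%. Of the 4 falls SLC25A46 passed the limit through its control levels. SLC25A13 (citrin), which exchanges mitochondrial aspartate for cytosolic glutamate as a part of the malate-aspartate shuttle, read 7.56, 7.46 and 7.47 in non-transfected cells, 8.004, 8.01 and 7.74 with the negative control and 8.53, 8.44 and 8.65 with miR-520f. The 3 groups were in order from non-transfected to negative control to miR-520f, without overlap. Its rise was 1.04 (SE 0.09, adjusted p = 1.03e-05) against non-transfected cells and 0.63 (SE 0.09, adjusted p = 0.000361) against the negative control, and the controls themselves differed by 0.42 (SE 0.09, adjusted p = 0.0101). Its paralogue SLC25A12 (aralar), which performs the same exchange, did not pass, at 0.12 and -0.28 against the 2 controls in turn, and its controls differed by 0.40 (SE 0.10, adjusted p = 0.0256). That call between the controls was lost without non-transfected replicate 3 or negative control replicate 2, with all probe sets tested or in an unmoderated model (0.32 to 0.40, adjusted p = 0.051 to 0.0968). SLC25A36, which carries pyrimidine nucleotides into the matrix, read 6.57, 6.42 and 6.07 in non-transfected cells, 6.47, 6.30 and 6.12 with the negative control and 6.93, 6.76 and 7.22 with miR-520f. All miR-520f arrays were above the controls, with a wide spread in each group. It changed by 0.62 (SE 0.15, adjusted p = 0.00892) against non-transfected cells and 0.67 (SE 0.15, adjusted p = 0.00538) against the negative control, and the call against non-transfected cells was lost in an unmoderated model (0.62, adjusted p = 0.0632).

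Among the mitochondrial carriers that fell, SLC25A44, a carrier of branched-chain amino acids, read 7.14, 7.34 and 7.27 in non-transfected cells, 7.71, 7.83 and 7.39 with the negative control and 6.23, 6.39 and 6.60 with miR-520f. Every miR-520f array was below every control, and the differences were -0.84 (SE 0.12, adjusted p = 0.000402) against non-transfected cells and -1.23 (SE 0.12, adjusted p = 2.64e-05) against the negative control. SLC25A40, known for the import of glutathione into mitochondria, read 6.91, 6.68 and 6.91 in non-transfected cells, 7.35, 7.34 and 7.13 with the negative control and 6.16, 5.83 and 6.27 with miR-520f. It too lay below all controls, with -0.75 (SE 0.12, adjusted p = 0.000647) against non-transfected cells and -1.19 (SE 0.12, adjusted p = 2.34e-05) against the negative control. Its paralogue SLC25A39, with the same known cargo, differed by 0.03 and 0.21 against the 2 controls and passed in neither. SLC25A37 (mitoferrin 1), which brings iron into mitochondria, read 7.48, 7.20 and 7.14 in non-transfected cells, 7.44, 7.39 and 7.29 with the negative control and 6.75, 6.73 and 6.60 with miR-520f, below all controls with miR-520f. The fall was -0.58 (SE 0.10, adjusted p = 0.000849) against non-transfected cells and -0.68 (SE 0.10, adjusted p = 0.000277) against the negative control, and a further probe set of the gene gave -1.23 and -1.02. SLC25A46, a protein of the outer membrane that shapes mitochondria, read 6.68, 6.57 and 6.66 in non-transfected cells, 6.55, 6.28 and 6.07 with the negative control and 5.91, 5.98 and 5.98 with miR-520f. The miR-520f arrays lay lowest, near 1 negative control array, and the differences were -0.68 (SE 0.11, adjusted p = 0.000647) against non-transfected cells and -0.35 (SE 0.11, adjusted p = 0.0329) against the negative control. Its call against the negative control was lost without negative control replicate 1 or 2 or miR-520f replicate 1, 2 or 3, with arrays centred on their median, with all probe sets tested, in an unmoderated model or in a fit of the 2 groups alone (-0.36 to -0.22, adjusted p = 0.0536 to 0.109).

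In the comparison with non-transfected cells, and not in the other, SLC25A22, a glutamate carrier, passed as higher by 0.46 (SE 0.14, adjusted p = 0.0287), and SLC25A24, an ATP-magnesium and phosphate carrier, by 0.58 (SE 0.15, adjusted p = 0.013). Neither call was kept under every setting. That of SLC25A22 was lost without non-transfected replicate 2 or 3 or miR-520f replicate 1 or 2, with all probe sets tested or in an unmoderated model (0.32 to 0.48, adjusted p = 0.0561 to 0.116), and that of SLC25A24 without non-transfected replicate 3 or in an unmoderated model (0.51 to 0.58, adjusted p = 0.0547 to 0.0779). The citrate exporter SLC25A1 was at 9.25, 9.20 and 9.25 in non-transfected cells, 8.88, 9.15 and 8.78 with the negative control and 9.38, 9.08 and 9.25 with miR-520f. Non-transfected and miR-520f arrays overlapped and 2 of 3 negative control arrays lay below all others, and the differences were -0.002 (SE 0.11, adjusted p = 0.993) against non-transfected cells and 0.30 (SE 0.11, adjusted p = 0.0586) against the negative control, neither a call. The last 4 members of the class also passed in neither comparison. In the same order of controls, SLC25A4, an ADP/ATP exchanger, differed by -0.25 and -0.26, and the dicarboxylate carrier SLC25A10 by 0.19 and 0.25. The oxoglutarate/malate carrier SLC25A11 differed by 0.12 and 0.36 and SLC25A43 by -0.39 and -0.32.

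Amino acid carriers numbered 11, with 1 rise, 1 fall and 6 members that passed in neither comparison. The rise and the fall were 9.09% each, beside 17.3% and 14.2% of genes at 6.0 or more. Of those 4664 genes 1716 passed in neither. SLC3A2 (the 4F2 heavy chain), the partner that SLC7A5, SLC7A11 and other light chains need to reach the plasma membrane, read 9.61, 9.43 and 9.38 in non-transfected cells, 9.39, 9.72 and 9.63 with the negative control and 9.94, 9.87 and 9.88 with miR-520f. The miR-520f arrays lay above all controls. It rose by 0.43 (SE 0.10, adjusted p = 0.00629) against non-transfected cells and 0.32 (SE 0.10, adjusted p = 0.0292) against the negative control. Its call against the negative control was lost without negative control replicate 1 or miR-520f replicate 1, 2 or 3, with all probe sets tested or in an unmoderated model (0.22 to 0.33, adjusted p = 0.0503 to 0.102). SLC7A5 (LAT1), the light chain that imports large neutral amino acids, read 9.97, 9.83 and 9.68 in non-transfected cells, 10.01, 10.09 and 10.02 with the negative control and 10.23, 10.29 and 10.11 with miR-520f, again with miR-520f above all controls. It rose against non-transfected cells by 0.38 (SE 0.09, adjusted p = 0.00672), but against the negative control the difference was 0.17 (SE 0.09, adjusted p = 0.213), with a 95% interval from -0.03 to 0.36.

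SLC7A11 (xCT), the light chain that exchanges cystine for glutamate, separated both transfected groups from non-transfected cells. It read 8.74, 8.57 and 8.44 in non-transfected cells, 9.35, 9.39 and 9.31 with the negative control and 9.39, 9.21 and 9.52 with miR-520f. The arrays of both mimics overlapped each other and lay above all non-transfected arrays. Against non-transfected cells miR-520f was higher by 0.79 (SE 0.10, adjusted p = 0.000118) and the negative control by 0.76 (SE 0.10, adjusted p = 0.000463). Between the mimics the difference was 0.02 (SE 0.10, adjusted p = 0.899), with a 95% interval from -0.19 to 0.24.

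SLC6A9, a sodium-driven glycine importer, was the amino acid carrier that fell, and read 6.82, 6.61 and 6.59 in non-transfected cells, 6.91, 6.85 and 6.59 with the negative control and 5.9999, 6.17 and 5.99 with miR-520f. Every miR-520f array was below every control, and the differences were -0.62 (SE 0.10, adjusted p = 0.000889) against non-transfected cells and -0.73 (SE 0.10, adjusted p = 0.000279) against the negative control. SLC1A4, a carrier of alanine, serine and cysteine, passed as lower against non-transfected cells and not against the other control, at a log2 fold change of -0.41 (SE 0.12, adjusted p = 0.0215), a call lost without non-transfected replicate 1 or 2 or miR-520f replicate 1 or 2, with arrays centred on their median or in an unmoderated model (-0.41 to -0.33, adjusted p = 0.0585 to 0.0849). The glutamine carriers SLC1A5, SLC38A1 and SLC38A2 did not pass. SLC38A2 (SNAT2), also a carrier of alanine and proline, read 11.52, 11.61 and 11.59 in non-transfected cells, 11.31, 11.66 and 11.79 with the negative control and 11.44, 11.40 and 11.54 with miR-520f, and its groups overlapped. Against the 2 controls in turn the differences were -0.11 and -0.13 for SLC38A2, -0.06 and -0.14 for SLC38A1 and -0.02 and -0.12 for SLC1A5. The 95% interval against the negative control ran from -0.37 to 0.12 for SLC38A2 and from -0.32 to 0.08 for SLC1A5. SLC7A1, which imports arginine and lysine, differed by 0.02 and -0.25, SLC36A4 by -0.26 and -0.03 and SLC38A10 by -0.22 and -0.15, none of them a call.

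The proximal promoters of SLC25A13 and SLC3A2 are shown because, among the 5 of 7 rising carriers with an entry in the RefSeq promoter table, these 2 hold the core of the antioxidant response element, TGACNNNGC. Each run is the 250 bases upstream of the annotated start on GRCh38.p14, in the direction of the gene, at chr7:96322099-96322348 on the minus strand (GC 73.6%) and chr11:62881449-62881698 on the plus strand (GC 65.6%). Capitals mark the match, which reads on the opposite strand in SLC25A13.
SLC25A13: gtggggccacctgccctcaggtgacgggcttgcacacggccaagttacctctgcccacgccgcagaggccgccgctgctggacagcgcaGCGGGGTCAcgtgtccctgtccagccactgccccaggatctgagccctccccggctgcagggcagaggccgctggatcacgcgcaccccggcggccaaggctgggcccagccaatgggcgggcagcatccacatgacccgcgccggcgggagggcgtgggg
SLC3A2: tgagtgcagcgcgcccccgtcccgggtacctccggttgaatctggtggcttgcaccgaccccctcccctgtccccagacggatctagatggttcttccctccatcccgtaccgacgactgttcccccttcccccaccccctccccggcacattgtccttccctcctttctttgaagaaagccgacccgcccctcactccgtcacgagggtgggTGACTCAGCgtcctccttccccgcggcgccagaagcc
The core was searched on both strands from 250 bases before to 50 after the start. It occurred in 15 of 58 members with a window (25.9%) and in 13.6% of the 27305 promoters of the table. Those promoters were not matched to the members for level or GC content, and the difference in share was not tested. Among the 14 falling carriers with a window 1 held it, SLC25A46. No other holder was called against both controls. Of these, SLC7A5, SLC15A4, SLC25A24 and SLC39A9 were higher and SLC39A1 and SLC50A1 lower in 1 miR-520f comparison. SLC7A1, SLC20A1, SLC25A1, SLC25A39, SLC30A5 and SLC30A9 passed in neither. The amino acid response core TGATGNAA, searched the same way, occurred in 4 members (6.9%), SLC3A2, SLC38A1, SLC7A1 and SLC25A11, and in 3.67% of promoters. A match of letters is a description and does not show that a factor binds.

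Sugar and polyol carriers numbered 5, with 1 rise and 1 fall against both controls (20.0% each). Of genes at 6.0 or more 17.3% rose and 14.2% fell. SLC5A3, which brings myo-inositol into cells with sodium, read 8.67, 8.28 and 8.49 in non-transfected cells, 8.02, 8.15 and 8.46 with the negative control and 9.11, 9.03 and 9.03 with miR-520f. The miR-520f arrays were above all controls. It rose by 0.58 (SE 0.12, adjusted p = 0.00428) against non-transfected cells and 0.84 (SE 0.12, adjusted p = 0.000337) against the negative control. SLC5A3 shares its locus with MRPS6, and a further probe set annotated with both genes gave 0.34 (adjusted p = 0.0963 over all probe sets) and 0.61 (adjusted p = 0.00725). SLC2A1 (GLUT1), the widespread glucose importer, read 6.95, 6.63 and 6.55 in non-transfected cells, 7.25, 7.03 and 6.69 with the negative control and 6.18, 6.17 and 6.06 with miR-520f. Every miR-520f array lay below every control. It fell, with log2 fold changes of -0.58 (SE 0.14, adjusted p = 0.00874) against non-transfected cells and -0.85 (SE 0.14, adjusted p = 0.000739) against the negative control, and the call against non-transfected cells was lost in an unmoderated model (-0.58, adjusted p = 0.0596).

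SLC37A4, which brings glucose-6-phosphate into the endoplasmic reticulum, passed as lower against non-transfected cells and not against the other control, at a log2 fold change of -0.33 (SE 0.09, adjusted p = 0.0168), a call lost without non-transfected replicate 1 or 2 or miR-520f replicate 3 (-0.31 to -0.27, adjusted p = 0.0637 to 0.0745). SLC50A1, a sugar carrier of the SWEET family, read 8.81, 8.48 and 8.54 in non-transfected cells, 8.42, 8.43 and 8.11 with the negative control and 8.33, 8.15 and 8.26 with miR-520f and passed as lower against the same group alone, at a log2 fold change of -0.36 (SE 0.11, adjusted p = 0.0305), a call lost without non-transfected replicate 1 or miR-520f replicate 2 or 3, with arrays centred on their median, with all probe sets tested or in an unmoderated model (-0.37 to -0.26, adjusted p = 0.0554 to 0.113). In both genes the negative control lay near miR-520f, with differences of -0.03 and -0.07. SLC37A3, of the sugar-phosphate family, read 8.69, 8.63 and 8.50 in non-transfected cells, 8.46, 8.54 and 8.37 with the negative control and 8.44, 8.39 and 8.44 with miR-520f and passed in neither, with -0.18 and -0.03.

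SLC6A6, which imports taurine with sodium, was among the largest falls and read 7.83, 7.63 and 7.78 in non-transfected cells, 7.46, 7.31 and 7.24 with the negative control and 6.27, 6.27 and 6.36 with miR-520f. The 3 groups did not overlap, with miR-520f lowest and the negative control in the middle. The changes were -1.44 (SE 0.08, adjusted p = 6.6e-07) against non-transfected cells and -1.03 (SE 0.08, adjusted p = 5.43e-06) against the negative control, and the control mimic itself was lower than non-transfected cells, at -0.41 (SE 0.08, adjusted p = 0.00712). Of the other carriers of peptides, organic ions and osmolytes, SLC15A4, a proton-driven histidine and peptide carrier of lysosomes, read 7.55, 7.57 and 7.60 in non-transfected cells, 7.54, 7.35 and 7.54 with the negative control and 7.80, 7.89 and 7.65 with miR-520f. It passed as higher against the negative control and not against the other control, at a log2 fold change of 0.30 (SE 0.08, adjusted p = 0.0175), a call lost without negative control replicate 2 or miR-520f replicate 1 or 2 or after a further quantile normalization (0.24 to 0.30, adjusted p = 0.0639 to 0.077). SLC29A4, an organic cation carrier of the plasma membrane, differed by -0.14 and 0.14 and passed in neither comparison.

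Carriers of nucleotide sugars and related cargo of the Golgi apparatus and endoplasmic reticulum numbered 4. SLC35A3, which carries UDP-N-acetylglucosamine into the Golgi apparatus, read 6.31, 6.32 and 6.51 in non-transfected cells, 6.87, 6.86 and 6.89 with the negative control and 5.71, 5.70 and 6.13 with miR-520f. The groups were apart from each other, highest in the negative control and lowest with miR-520f. It fell, with log2 fold changes of -0.53 (SE 0.11, adjusted p = 0.00408) against non-transfected cells and -1.02 (SE 0.11, adjusted p = 4.8e-05) against the negative control, and the controls differed by 0.49 (SE 0.11, adjusted p = 0.0129), a call lost without non-transfected replicate 2 or in an unmoderated model (0.46 to 0.49, adjusted p = 0.0553 to 0.0734). SLC35A5, of the same family, passed as higher against non-transfected cells and not against the other control, at a log2 fold change of 0.59 (SE 0.13, adjusted p = 0.00469). SLC35A4 read 9.28, 9.29 and 9.33 in non-transfected cells, 9.46, 9.45 and 9.23 with the negative control and 9.26, 9.22 and 9.39 with miR-520f, with overlapping groups and differences of -0.01 and -0.09. SLC33A1, the acetyl-CoA carrier of the endoplasmic reticulum, had all miR-520f arrays above the controls, but with 0.21 and 0.23 it did not pass in either comparison.

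The vitamin and choline carriers, 3 in number, held no member called against both controls. Among genes at 6.0 or more 17.3% were higher and 14.2% lower against both. SLC5A6, which imports biotin and pantothenate, read 6.81, 6.39 and 6.64 in non-transfected cells, 7.64, 7.46 and 7.25 with the negative control and 7.23, 7.13 and 7.27 with miR-520f. Both mimics were above non-transfected cells. The negative control rose by 0.83 (SE 0.12, adjusted p = 0.000999), the largest difference between the controls of any member, and miR-520f by 0.59 (SE 0.12, adjusted p = 0.00325). Between the mimics the difference was -0.24 (SE 0.12, adjusted p = 0.184), with a 95% interval from -0.51 to 0.03. SLC52A2, a riboflavin importer, read 7.25, 7.22 and 7.21 in non-transfected cells, 7.51, 7.26 and 7.13 with the negative control and 7.09, 7.13 and 7.21 with miR-520f, and SLC44A2, a choline transporter-like protein, differed by -0.30 and 0.03. Neither passed, and SLC52A2 differed by -0.08 and -0.15 against the 2 controls.

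Finally, 9 members had no substrate assigned here, 7 of them newer symbols for proteins first named otherwise. Of these 9, 1 (11.1%) rose and 3 (33.3%) fell against both controls, beside 17.3% and 14.2% of genes at 6.0 or more. Of the 3 falls SLC75A1 passed the limit through its control levels. SLC71A1 (also MFSD14A) read 7.90, 7.72 and 7.65 in non-transfected cells, 8.28, 8.08 and 7.99 with the negative control and 6.85, 6.65 and 7.06 with miR-520f, all miR-520f arrays below the controls. It fell, with log2 fold changes of -0.91 (SE 0.12, adjusted p = 0.000153) against non-transfected cells and -1.26 (SE 0.12, adjusted p = 1.39e-05) against the negative control. SLC49A4 (also DIRC2), a lysosomal membrane protein, read 8.18, 7.85 and 7.81 in non-transfected cells, 8.47, 8.25 and 8.18 with the negative control and 7.39, 7.43 and 7.41 with miR-520f and fell, with log2 fold changes of -0.54 (SE 0.11, adjusted p = 0.00316) against non-transfected cells and -0.89 (SE 0.11, adjusted p = 0.000104) against the negative control. SLC75A1 (also MFSD10) read 7.28, 6.79 and 6.88 in non-transfected cells, 7.17, 6.87 and 6.48 with the negative control and 6.01, 6.07 and 5.74 with miR-520f, with a wide spread in every group and miR-520f lowest. Its fall was -1.04 (SE 0.17, adjusted p = 0.000972) against non-transfected cells and -0.90 (SE 0.17, adjusted p = 0.00242) against the negative control. SLC66A2 (also PQLC1) was the one that rose, reading 6.35, 6.35 and 6.01 in non-transfected cells, 6.24, 6.38 and 6.08 with the negative control and 6.68, 6.74 and 6.54 with miR-520f, by 0.42 (SE 0.11, adjusted p = 0.0147) against non-transfected cells and 0.42 (SE 0.11, adjusted p = 0.0142) against the negative control. Its calls were lost without non-transfected replicate 3 or miR-520f replicate 1 or 2 or in an unmoderated model (0.31 to 0.42, adjusted p = 0.0518 to 0.0646) against non-transfected cells and without negative control replicate 3 or miR-520f replicate 1 or 2 or in an unmoderated model (0.35 to 0.42, adjusted p = 0.0503 to 0.0637) against the negative control.

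SLC38A12 (also TMEM104) passed as higher against the negative control and not against the other control, at a log2 fold change of 0.62 (SE 0.15, adjusted p = 0.00773), a call lost in an unmoderated model (0.62, adjusted p = 0.0583). SLC16A5 passed as lower against non-transfected cells and not against the other control, at a log2 fold change of -0.29 (SE 0.08, adjusted p = 0.0251), a call lost without non-transfected replicate 1, 2 or 3 or miR-520f replicate 1 or 3, with arrays centred on their median, with a trended spread or in an unmoderated model (-0.30 to -0.22, adjusted p = 0.0505 to 0.102). Passing in neither comparison, SLC10A3 differed by -0.15 and -0.08, SLC60A2 by 0.12 and -0.17 and SLC66A3 by -0.21 and -0.01. The lactate carriers SLC16A1 and SLC16A3 and the ADP/ATP exchanger SLC25A5 had no probe set under a single symbol and are not analysed here.

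**Figure D3:**
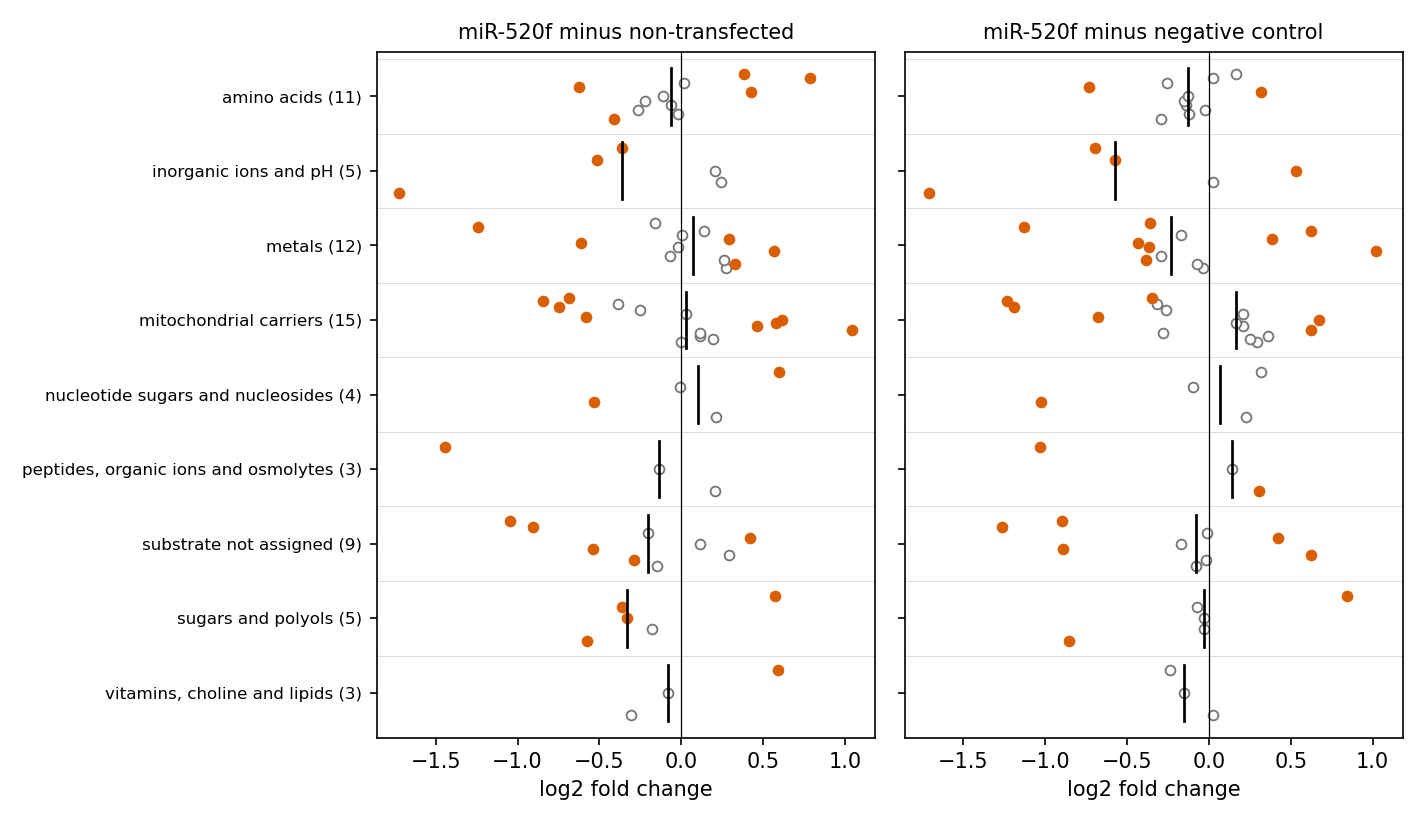
Each point is 1 of the 67 solute carriers, placed by its log2 fold change under miR-520f, set against non-transfected cells at left and the negative control mimic at right, by substrate class with the number of members in brackets. Filled points passed an adjusted p under 0.05, vertical bars are class medians, and most classes hold points on both sides of 0.

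The negative control mimic by itself went with different levels of 14 carriers, 9 higher and 5 lower than in non-transfected cells. These were 13.4% and 7.46% of members, beside 7.00% and 8.28% of all genes and 14.1% and 12.0% of genes at 6.0 or more. The largest were SLC5A6, SLC7A11, SLC30A7 and SLC35A3, which were higher, and SLC39A9 and SLC31A1, which were lower. SLC30A7 was higher by 0.65 (SE 0.12, adjusted p = 0.00393), SLC39A9 changed by -0.48 (SE 0.08, adjusted p = 0.00229) and SLC31A1 by -0.45 (SE 0.09, adjusted p = 0.00547). SLC39A1 (0.35), SLC30A6 (0.40) and SLC25A40 (0.44) were also higher and SLC37A4 (-0.30) lower. The calls between the controls were lost without non-transfected replicate 2 or 3 (0.32 to 0.33, adjusted p = 0.0541 to 0.0662) for SLC39A1, without non-transfected replicate 1 or 2 or negative control replicate 1, 2 or 3 or miR-520f replicate 1, with arrays centred on their median, with all probe sets tested, with a trended spread, in an unmoderated model or in a fit of the 2 groups alone (-0.33 to -0.24, adjusted p = 0.0504 to 0.153) for SLC37A4 and without non-transfected replicate 2 or negative control replicate 1 or 2, with all probe sets tested or in an unmoderated model (0.37 to 0.44, adjusted p = 0.0557 to 0.118) for SLC25A40. Without non-transfected replicate 2, 9 members in place of 14 were called. The 3 comparisons share arrays, so their values for one gene are not independent.

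**Figure D4:**
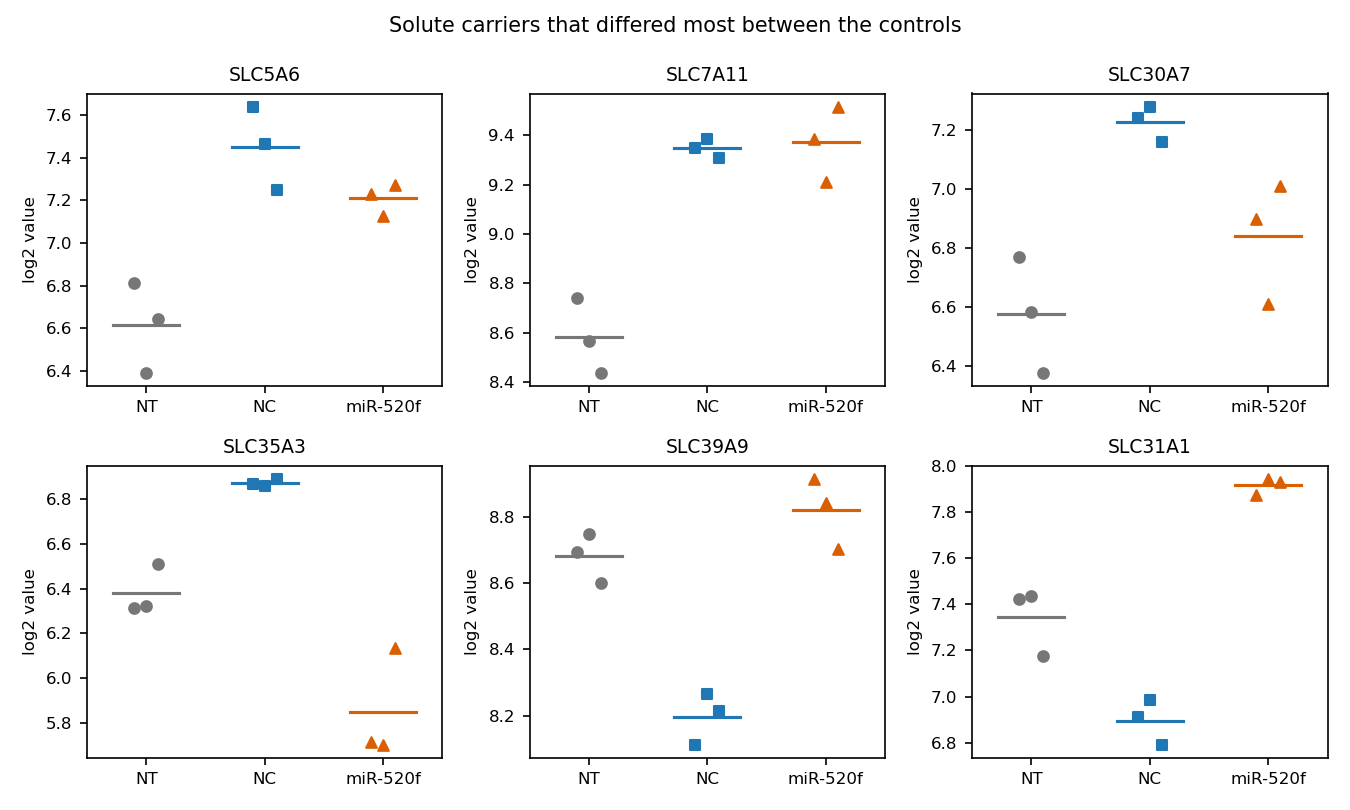
Log2 values of the 6 carriers that differed most between the controls are plotted for non-transfected (NT), negative control (NC) and miR-520f cells, with 3 arrays a group, a bar at the mean and axes that do not start at 0. SLC5A6 and SLC7A11 are high with both mimics, whereas SLC39A9 is low in the negative control alone.

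Carriers that lie outside the symbol rule, their protein partners and their regulators were looked at as 3 lists. Of 46 measured carriers under other symbols 7 were higher and 7 lower against both controls (15.2% each, beside 9.37% and 8.61% of all genes). Of the 17 among them at 6.0 or more, 5 were higher and 1 lower (29.4% and 5.88%), against 17.3% and 14.2% of all genes at that level, whereas among the members more were lower than higher. FLVCR2, a choline and heme-linked carrier, rose by 1.41 and 1.51 against the 2 controls in turn. The organic anion carriers SLCO2A1 (-0.82 and -1.34) and SLCO4A1 (-0.88 and -0.76) and the orphan SLC35F3 (-0.90 and -0.91) fell. Over 9 arrays FLVCR2 (5.43), SLCO2A1 (4.47), SLCO4A1 (5.64) and SLC35F3 (5.41) had means below 6.0. Among 15 measured partners and energizers of transport 1 rose, STOM (0.37 and 0.38), a membrane protein that binds the glucose carrier SLC2A1, and 0 fell (6.67% and 0%). Of the 9 partners at 6.0 or more 1 rose and 0 fell (11.1% and 0%). Of 20 measured regulators 3 rose and 2 fell (15.0% and 10.0%, beside 9.37% and 8.61% of all genes). Of the 11 regulators at 6.0 or more, 2 rose and 2 fell (18.2% each), near the 17.3% and 14.2% of all genes at that level. SGK1, a kinase that raises carrier abundance at the membrane, rose by 0.93 and 0.99, and NEDD4L, a ubiquitin ligase that removes membrane carriers, by 0.61 and 0.64. SGK1 was dim, with means of 3.65 in non-transfected, 3.59 in negative control and 4.58 in miR-520f cells. KEAP1, which holds the antioxidant factor NRF2 in check, changed by -0.98 and -0.75, and EPAS1, a hypoxia-inducible factor, by -1.02 and -0.72. All of these passed in both comparisons (limma, adjusted p under 0.05).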

How the data were processed

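Total RNA from 9 samples of PANC-1 cells, 3 per group, was measured on Affymetrix arrays. The table the authors deposited holds log2 expression, 22011 probe sets by 9 arrays. Partek 6.6, RMA and the build hg18 are named per the submitters' processing notes, with settings not given in the sources used here. RMA corrects background, equalises the arrays and summarises probes, and it compresses differences of dim probe sets. The number of arrays limits the precision.

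The platform annotation gave 14432 probe sets a single symbol, 2408 several and 5171 none here. Per gene the probe set with the highest mean over 9 arrays was used, which gave 14232 genes. Of the probe sets with several symbols 52 hold a solute carrier name and were not used for members. Fits used limma 3.58.1 (R 4.3.3), all 9 arrays in one model with a mean for each treatment, a spread moderated by empirical Bayes and 6 residual degrees of freedom. Adjusted p-values are Benjamini-Hochberg over all genes. Called means an adjusted p under 0.05. The scripts were tested on simulated data. Levels of different probe sets served to choose the probe set of a gene, the members and the genes named. They also served to split genes at 6.0 and to describe markers and other genes as high or dim. No fold change or call compares one gene with another by level.

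Members, lists, substrate classes and the rule for named genes were chosen with earlier results of these data known. The classes of the newer symbols were set after the files were seen. Genes named were the 10 largest rises and falls against both controls, the 6 largest differences between the controls, the 2 brightest members of each class, 10 genes named by symbol where they were members, and the nearest genes on each side of the level of 6.0. Of the further lists up to 4 genes called against both controls were named. All other members were added so that each is accounted for. Alternatives covered normalization, dim genes, probe set choice, spread model, replicate block, thresholds and each array left out. A limit of 6.0 in every group or in at least 1 group was added after seeing the data.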

Additional observations from a re-analysis of the deposited data

How the results depend on the processing

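Under 20 alternative settings, 35 of the 78 calls of members kept their side of the threshold throughout, 43 were lost at least once (stricter thresholds included) and 0 changed direction. In an unmoderated model the members called between the controls numbered 9 and the genes 1287, and 3 members were higher against both controls. At an adjusted p under 0.01 these counts were 6, 1142 and 4. With a fold change of at least 1.5 added, members numbered 15 against non-transfected cells, 19 against the negative control and 3 between the controls, with 2 higher and 8 lower against both controls, and genes 1589, 1705 and 678. Leaving out 1 array at a time gave 9 to 17 members and 1394 to 2181 genes between the controls, the lowest of each without non-transfected replicate 2, and 4 to 8 members higher against both controls. Whether replicate numbers pair the arrays was not settled: 9 same-numbered pairs correlated at -0.03 to 0.21 and 18 other pairs at -0.44 to 0.33. Deviations were taken from group means, which ties the arrays of a group together, so these ranges cannot decide it. With the replicate number as a block, members called were 35, 30 and 15, with 7 higher and 16 lower against both controls, and genes 4060, 4159 and 2297. The further quantile normalization and median centring shifted log2 fold changes by a median over all genes of at most 0.0657. That largest shift was for miR-520f against non-transfected cells with centring, where the members' median fold change in the main fit was -0.064. With 3 arrays a group small differences are not resolved, dim probe sets are compressed, and 1 line at 1 time was measured.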

Other observations

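Among the 208 solute carrier genes below a mean of 6.0, 15 were higher and 13 lower with miR-520f against both controls (7.21% and 6.25%, against 9.37% and 8.61% of all genes; limma, adjusted p under 0.05). Values are log2 fold changes against non-transfected cells and the negative control, and RMA compresses them at these levels. Carriers of metals and mitochondria were again found on both sides. SLC11A2 (DMT1), an importer of iron, changed by 1.11 and 0.66, and SLC39A3 and SLC30A1, an importer and an exporter of zinc, by -0.96 and -1.10 and by -0.55 and -0.76. SLC25A20, which carries acylcarnitines into mitochondria, changed by 0.87 and 0.998 and SLC25A23, an ATP-magnesium and phosphate carrier, by -1.20 and -0.85. SLC7A3, an importer of cationic amino acids, changed by 0.92 and 0.85, SLC36A1, a lysosomal proton-driven amino acid carrier, by 0.60 and 1.32, and SLC23A2, a vitamin C importer, by 0.56 and 1.22. SLC2A12, a glucose carrier, changed by -1.31 and -0.62. These genes were chosen after their values were seen.

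A probe set annotated with both SLC2A3, a high-affinity glucose importer, and its near-identical copy SLC2A14 had means of 3.54 in non-transfected, 3.72 in negative control and 5.34 in miR-520f cells. The log2 differences were 1.80 and 1.63 (limma over all probe sets, adjusted p = 1.15e-05 and 1.76e-05). A second probe set annotated with the same genes, with a mean of 3.29, gave 0.36 and 0.36 (adjusted p = 0.00825 and 0.00852), the same direction at a much smaller size. The array does not separate the copies, whose shares were not analysed here. In the same cells SLC2A1 changed by -0.58 and -0.85. A probe set annotated with SLC39A11 and ATG12 fell, with changes of -1.01 and -0.96, and the gene behind it cannot be told apart.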
